A study of Homo sapiens with 44 samples.

Results

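The replication-dependent histone genes were taken as every row of the count tables whose symbol was H1-1 to H1-6 or began with H2AC, H2BC, H3C or H4C followed by a number. This gave 66 members among 19923 genes: 6 of the linker histone H1, 16 of H2A, 17 of H2B, 13 of H3 and 14 of H4. Of these, 11 lie on chromosome 1 and the others on chromosome 6. The study measured RNA from 2 human neuroblastoma lines, Kelly and NGP, both labelled MYCN-amplified and of WT genotype. Cultured cells received 8 uM STM2457, a small molecule that inhibits the m6A methyltransferase METTL3, or its solvent DMSO. RNA was taken at 1 and 6 days from Kelly and at 6 days from NGP. The fourth experiment used subcutaneous Kelly xenografts of nude mice that had daily injections of 50 mg/kg STM2457 or vehicle (labelled DMSO) for 14 days. Each of the 16 groups was either input RNA or the fraction pulled down with an antibody against m6A (RIP), with 3 libraries per culture group and 2 per xenograft group. Nothing in the labels says that replicates were separate cultures, so p-values measure the spread between these libraries.

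Histone mRNAs of this class supply the nucleosome during DNA synthesis: H2A, H2B, H3 and H4 form the core around which DNA winds, and H1 binds the linker DNA. Their genes have no introns and lie in clusters, and their mRNAs end in a conserved stem-loop in place of a poly(A) tail. The stem-loop is bound by SLBP, which serves 3′ end processing, translation and the rapid decay of these mRNAs at the end of S phase. The RNA measured here was selected for poly(A), so the values describe the share of each histone mRNA that passed that selection and not its total amount in the cell. m6A is deposited on mRNA mostly at a short motif around GGAC.

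The stem-loop that marks the class was searched for in the 100 bases after each stop codon, as a stem of 6 base pairs around a loop of 4 bases, 16 bases in all. It was present in 63 of 66 members (95.5%) and in 130 of 18949 genes with a coding model (0.686%). H3C6, H2BC10 and H4C13 had no match in that window. The 6 sequences below are those of members on which later values turn, or that show how the element varies. They are DNA letters of the mRNA strand, 5′ to 3′, from GRCh38 with GENCODE 44 models, and the capitals mark the stem-loop. H4C3 (chr6:26104312-26104337, plus strand) and H4C14 (chr1:149833027-149833052, plus strand) show the C-rich stem found in this search only among H4 genes, in 9 members with the first loop and in 4 with the second. H2BC12 (chr6:27146361-27146386, minus strand) has the form shared by 9 members, and H1-5 (chr6:27866792-27866817, minus strand) the form shared by 38. H2AC20 (chr1:149887386-149887411, plus strand) and H2AC11 (chr6:27133510-27133535, plus strand) each have a form that no other member has. Each of these genes has 1 coding exon. The stretch lies past the end of the gene as counted by the authors for H4C3, H2BC12, H1-5 and H2AC20, and within the counted gene's span for H4C14 and H2AC11.
H4C3: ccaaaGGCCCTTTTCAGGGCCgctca
H4C14: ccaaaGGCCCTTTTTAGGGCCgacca
H2BC12: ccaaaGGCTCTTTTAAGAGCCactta
H1-5: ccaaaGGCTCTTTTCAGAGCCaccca
H2AC20: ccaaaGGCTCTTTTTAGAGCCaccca
H2AC11: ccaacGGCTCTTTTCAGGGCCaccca

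Members were short and rich in G and C. Their median coding length was 388.5 bases against 1302 over all genes with a model, and the median GC content of the coding sequence was 61.2% against 52.9%. All 66 had 1 coding exon, as did 10.9% of all genes. The letters GGAC occurred in the coding sequence of 71.2% of members and of 96.4% of all genes, with a median density of 2.65 and 4.64 per kb. No GGAC was present in the coding sequence of 19 members, among them H4C3, H1-2, H1-4 and H1-5. In the 61 promoters matched in the RefSeq table (GRCh38.p14; 250 bases before to 50 after the start, both strands), TATAAA occurred in 67.2% against 9.61% of all promoters and CCAAT in 85.2% against 36.6%. The octamer ATTTGCAT occurred in 42.6% against 1.69%, in 11 of 15 H2A and 14 of 17 H2B promoters, 1 of 11 H3 promoters and none of the 6 H1 or 12 H4 promoters. The H3 promoter with the octamer, that of H3C4, spans the same bases as the H2AC7 promoter. Promoters of neighbouring H2A and H2B genes also overlap, as for H2BC4 and H2AC6, so these counts are not all of separate sequences. Copies limit the counting of some members. H4C14 and H4C15, H3C14 and H3C15, H2AC18 and H2AC19, and H4C11 and H4C12 have identical coding sequences, and in 8 members under 10% of the 50-base windows were unique in the genome. H2BC12, with 25.9% unique windows of 50 bases and 71.6% of 100 bases, is also uncertain, while 49 members had at least 90% unique windows of 50 bases. No read strand was set in the counting, so reads of overlapping genes cannot be told apart.

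The range of counted fragments per library, in units of 1000000 (M), was 24.07 to 36.5 M for the 1 day Kelly experiment, 5.77 to 31.5 M for the 6 day one, 5.49 to 24.07 M for NGP and 2.14 to 11.84 M for xenografts. The members took between 0.00721% and 0.0941% of the fragments of a library. H2AC1, H2BC1, H3C4, H2AC7, H4C6 and H2AC15 had no fragment in any of the 44 libraries, and 4 members had at least 1 fragment in every library. Other counted genes cover 100% of the exon bases of H3C4 and H2AC15 and 97.96% of those of H2AC7. Fragments in such shared stretches were not assigned to a gene, so the zeros of H3C4, H2AC7 and H2AC15 do not show absence of expression. DBH and TH, catecholamine synthesis enzymes that mark neuroblastoma, were expressed enough to be tested in the inputs of all 4 experiments, and both were lower in NGP. They were singled out after their values were seen, and other markers of that list differed between the lines in both directions. The log2 difference of DMSO inputs at 6 days, Kelly minus NGP, was 3.97 for DBH and 10.42 for TH (edgeR quasi-likelihood adjusted p 1.36e-08 and 3.28e-10). Of the 14 stroma, vessel and blood markers, 3 to 8 were at 0 in each input group and the sum ran from 16.3 to 122 CPM (counts per 1000000 counted fragments). METTL3 mRNA stood at 93.1 ± 5.83 CPM (SD, n = 3) with DMSO and 103.5 ± 4.42 with STM2457 in Kelly at 1 day. STM2457 acts on the enzyme, so its mRNA does not check the labels. In bulk RNA, fewer cells in S phase and less histone mRNA per cell cannot be told apart.

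The summed level of the 66 members was lowest in cultured Kelly cells at 6 days and highest in NGP. Levels here are CPM of each library's total, without further scaling. In Kelly at 1 day the DMSO inputs held 279, 296 and 276 CPM (283.8 ± 10.98, SD, n = 3) and the STM2457 inputs 286, 281 and 288 (284.9 ± 3.37), so the groups overlapped. At 6 days the DMSO inputs of Kelly held 125, 129 and 129 CPM and the STM2457 inputs 143, 153 and 152, a ratio of 1.17 with no overlap. NGP inputs held 941, 864 and 719 CPM with DMSO and 740, 885 and 627 with STM2457, and these overlapped. The xenograft inputs held 234 and 261 CPM with DMSO and 320 and 336 with STM2457, a ratio of 1.32 with no overlap between 2 libraries each. The RIP libraries of Kelly at 1 day stood apart: 204, 192 and 191 CPM with DMSO and 405, 428 and 379 with STM2457, a ratio of 2.06 that was 1.70 without H4C3.

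**Figure D1:**
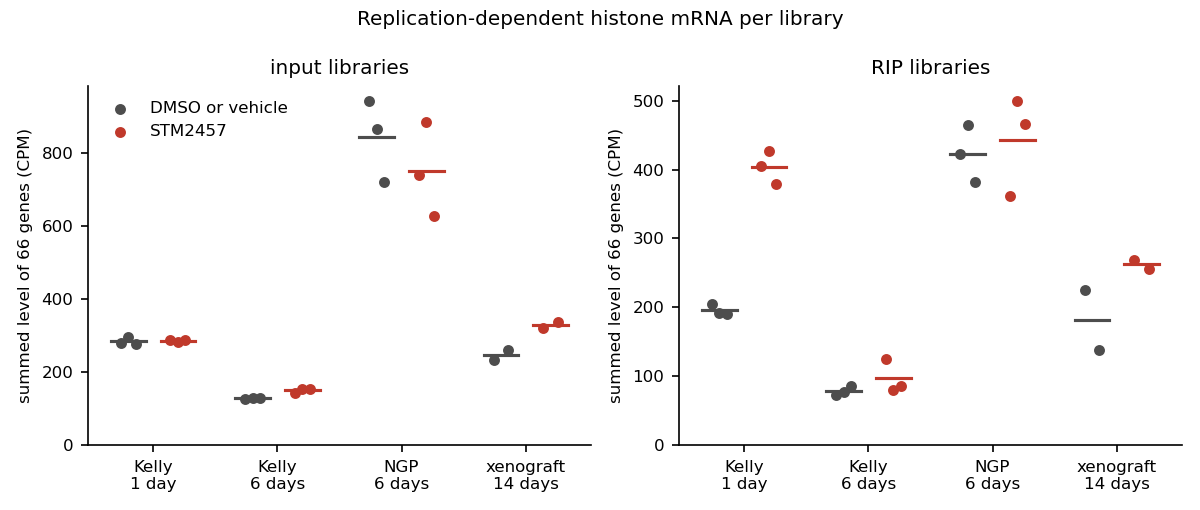
Summed level of the 66 histone members in each library (CPM of the library total, vertical axis) by experiment, for input and RIP libraries with DMSO or STM2457; points are libraries and bars are group means. The STM2457 RIP libraries of Kelly at 1 day lie between 379 and 428 CPM and the DMSO ones between 191 and 204, while the NGP inputs of both treatments overlap.

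The leading members differed between experiments, and the 5 highest by CPM held 44.8% of the sum in the DMSO inputs of Kelly at 1 day, 51.5% at 6 days, 33.8% in NGP and 58.9% in the xenografts. Per kilobase of exon, H4C3, an H4 gene of the large chromosome 6 cluster, led in the DMSO inputs of Kelly at 1 day with 145 ± 10.4 CPM per kb (SD, n = 3), followed by H2BC12 at 60.0 ± 7.91. H2BC14, H1-2 and H4C2 came next at 27.4, 24.4 and 19.1 CPM per kb. In Kelly at 6 days H2BC12 led with 51.7 ± 6.44 CPM per kb, then H1-2 at 35.9, H2AC20 at 18.1, H2BC5 at 10.5 and H2AC8 at 8.38. In NGP the order was H2BC12 at 275 ± 54.8, H2AC20 at 115, H2AC16 at 83.2, H1-2 at 80.8 and H2BC14 at 67.2 CPM per kb, where the last 3 did not differ beyond their spread. The xenografts had H2BC12 at 120 and H1-2 at 51.2 CPM per kb, ahead of H2BC5 at 22.3, H2BC14 at 15.9 and H2AC6 at 15.8. The SD of H2BC14 there was 22.4 (n = 2), above its mean, so its place is uncertain. H2BC12 and H1-2 were thus among the 5 highest in all 4 experiments. The 5 highest members by CPM per kb are a choice on these levels, and their order carries no test.

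The DMSO inputs of Kelly differed between the 1 day and 6 day experiments, which were separate, so that day and experiment cannot be told apart and no test was made. The summed level was 2.23 times higher at 1 day, and 1.74 times without H4C3. H4C3 held 65.5, 58.1 and 66.2 CPM at 1 day and 1.08, 0.548 and 1.46 CPM at 6 days, a ratio of 61.6. H4C5 stood at 8.51 and 0.273 CPM (ratio 31.2) and H1-5 at 9.56 and 0.800 CPM (ratio 11.96). The reverse held, with no overlap, for H2AC20, at 2.36 and 7.05 CPM, for H4C11, at 0.448 and 2.85 CPM, and for H1-2, at 15.7 and 23.1 CPM. It also held for H2AC19, at 0.0389 and 1.21 CPM, and H2AC18, at 0.0414 and 0.782 CPM, both near 0 at 1 day. Of the 50-base windows, 0% were unique in the genome for H2AC18 and H2AC19 and 8.33% for H4C11. The counts of these copies are therefore uncertain. Over the 40 members with a mean above 0 at 1 day and a fragment in every 6 day library, the median ratio was 1.70. That rule is stricter at 6 days and left out members such as H4C2 and H4C8, so this median can be too low. H4C5, H2AC18, H2AC19, H4C2 and H4C8 were picked out here after their values were seen.

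Nearly every member was lower in Kelly than in NGP when the DMSO inputs of the 6 day experiments were compared. Of 52 members tested, 46 were lower and 0 higher in Kelly in edgeR's quasi-likelihood fit (Benjamini-Hochberg adjusted p under 0.05), where 29.1% of all genes were lower, 31.7% higher and 60.8% either. The median log2 difference, Kelly minus NGP, was -3.18 over the members and 0.03 over all genes, and all 52 members were below 0. Of all genes, 51.2% were above 0. The calls covered 4 of 4 H1, 11 of 12 H2A, 15 of 16 H2B, 9 of 11 H3 and 7 of 9 H4 members tested. In summed CPM, NGP exceeded Kelly 3.67 times for H1, 6.80 times for H2A, 7.26 times for H2B, 11.96 times for H3 and 7.98 times for H4. Line and experiment cannot be told apart, since each line was run as an experiment of its own.

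The size of the difference varied from member to member. H2BC12 held 17.0, 20.4 and 21.7 CPM in Kelly and 99.6, 128 and 87.0 CPM in NGP, a log2 difference of -2.21. H1-2, the most abundant linker histone mRNA in these cells, held 23.2, 22.4 and 23.6 CPM in Kelly and 48.1, 56.6 and 50.9 CPM in NGP, a log2 difference of -0.97 (edgeR quasi-likelihood adjusted p 8.78e-05). H1-5 differed by -4.63, H2AC16 by -4.14 and H4C3 by -3.66, with no overlap of the libraries. H3C3, H3C8, H4C13, H2BC10 and H2BC3, singled out after their values were seen, had no fragment in the 3 Kelly libraries. Against a floor of 3 counts per library they were at least 30.7-, 21.2-, 16.8-, 16.4- and 8.85-fold lower in Kelly. H3C10, H3C6, H2BC11, H4C9, H2AC11 and H4C11 did not pass the test. The call of H1-3 was lost without Kelly replicate 1 (adjusted p 0.0531), and the count of calls stayed between 44 and 53 when any library was left out. Here and below, the share of all genes called with a library left out is not given.

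**Figure D2:**
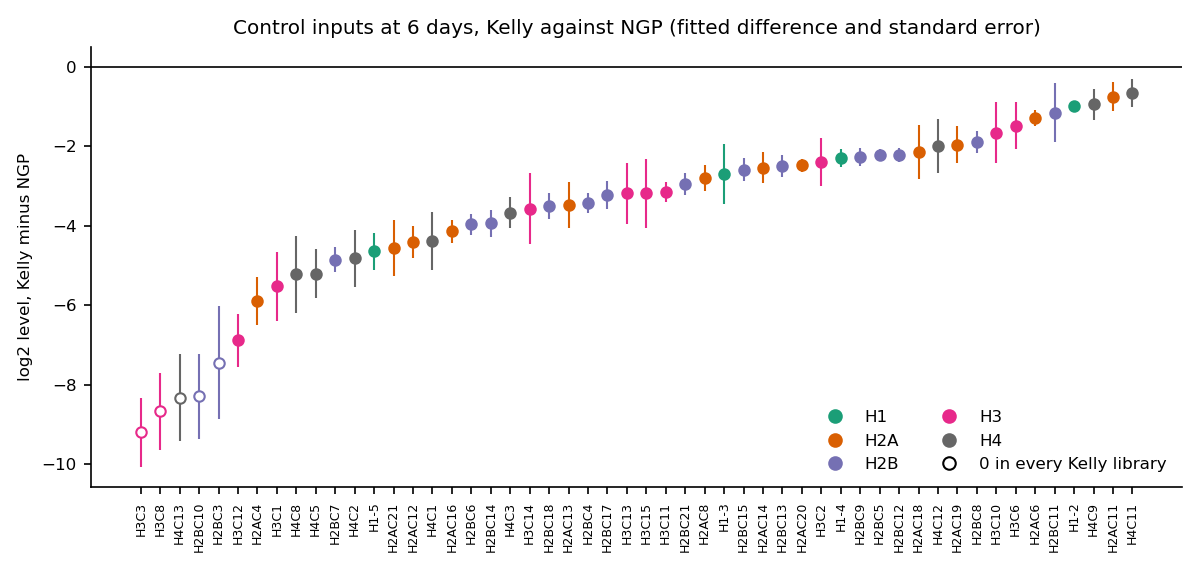
Log2 difference in input level, Kelly minus NGP, in DMSO at 6 days for the 52 histone members tested (edgeR, TMM scaling), in order of that difference and coloured by family. Open points mark members at 0 in every Kelly library, whose fitted sizes are no bound. Every member lies below 0, with a median of -3.18.

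Other cell cycle genes, taken from lists drawn up with earlier results known, showed smaller differences between the lines. Of 21 S phase genes, such as PCNA and the MCM helicase subunits, 7 were higher and 12 lower in Kelly, with a median log2 difference of -0.40. Of 10 mitotic genes, 9 were lower and 0 higher, with a median of -0.89. Of 12 variant and polyadenylated histones, 3 were higher and 6 lower, with a median of -0.29. SLBP mRNA stood at 83.1 ± 2.83 CPM in Kelly and 94.6 ± 17.7 CPM in NGP (SD, n = 3). The part of cell cycle distribution in the histone difference was not tested.

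After 1 day of STM2457, few histone mRNAs of the Kelly inputs changed. Of 47 members tested, 1 rose and 2 fell at an adjusted p under 0.05 (edgeR quasi-likelihood, as in all tests that follow), where 9.41% of all genes rose, 8.06% fell and 17.5% did either, and 7 members had an unadjusted p under 0.05. The share of all genes with an unadjusted p under 0.05 is not given, here or below. Such counts of members therefore have no background beside them. The median log2 change was -0.08 over the members and 0.01 over all genes. H1-5, a linker histone, held 10.2, 9.77 and 8.66 CPM with DMSO and 6.54, 6.12 and 5.28 with STM2457. This fall of H1-5 had a log2 change of -0.70 (SE 0.15, adjusted p 0.00322), showed no overlap and held with any library left out. In the fit of all 22 inputs together 0 members were called in Kelly at 1 day, and H1-5 had an adjusted p of 0.935. H3C10, an H3 gene, held 3.43, 3.77 and 4.48 CPM with DMSO and 5.83, 6.33 and 5.57 with STM2457, a rise of 0.58 (SE 0.18, adjusted p 0.0307). H2AC21 held 2.49, 2.15 and 1.77 CPM against 1.41, 0.745 and 0.831, a log2 change of -1.12 (SE 0.33, adjusted p 0.0258). The latter pair was less firm. The call of H3C10 was lost without any single library except DMSO replicate 3 (adjusted p 0.0590 to 0.112), and that of H2AC21 without DMSO replicate 1 (0.0941), DMSO replicate 2 (0.0596), STM2457 replicate 2 (0.1096) or STM2457 replicate 3 (0.0965). With any of those 4 libraries left out in turn, 1 member was called.

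After 6 days of STM2457, individual members of the Kelly inputs changed in both directions. Of 30 members tested, 3 rose and 4 fell, where 11.9% of all genes rose, 14.7% fell and 26.6% did either, and the median log2 change was -0.07 against 0.00 over all genes. The 3 that rose encode H2A and H2B. H2BC12 held 17.0, 20.4 and 21.7 CPM with DMSO and 32.3, 34.4 and 36.9 with STM2457, a log2 change of 0.69 (SE 0.11, adjusted p 0.000253). H2AC6 went from 7.53, 6.73 and 5.91 CPM to 14.1, 12.4 and 11.97, a change of 0.84 (SE 0.16, adjusted p 0.000960). H2BC5 went from 8.94, 9.62 and 8.99 CPM to 13.4, 17.6 and 16.3, a change of 0.66 (SE 0.15, adjusted p 0.00281). In the fit of all 22 inputs the calls in Kelly at 6 days were 2 rises and 1 fall, H2BC12 and H2AC6 passed and H2BC5 did not (adjusted p 0.0697). In each of these 3 the lowest STM2457 library lay above the highest DMSO library, and the summed CPM of the H2B family was 1.35 times higher, also with no overlap.

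The 4 members that fell in Kelly at 6 days were H2AC20, H4C11, H2BC9 and H2AC11. H2AC20 held 7.03, 6.42 and 7.69 CPM with DMSO and 3.24, 4.26 and 3.82 with STM2457, a log2 change of -1.01 (SE 0.21, adjusted p 0.00198). H4C11, whose coding sequence is identical to that of H4C12, went from 3.47, 2.74 and 2.35 CPM to 1.19, 0.858 and 1.56, a change of -1.47 (SE 0.36, adjusted p 0.00596). Its counts may be shared between both copies. H2BC9 went from 4.63, 3.21 and 4.05 CPM to 2.44, 1.62 and 0.867, a change of -1.22 (SE 0.32, adjusted p 0.0101). That call was lost without DMSO replicate 1 (0.0562) or STM2457 replicate 2 (0.0577). H2AC11 changed by -0.79 (SE 0.28, adjusted p 0.0485), and its call was lost with any library left out (0.0642 to 0.192). In the fit of all 22 inputs none of the 4 passed (adjusted p 0.0886 to 0.359). The libraries of all 4 did not overlap between treatments. Genes listed as stroma, vessel and blood markers summed to 41.7 to 53.9 CPM with DMSO and 31.1 to 33.9 CPM with STM2457 in these inputs, which came from a cultured line. Their relation to the histone values was not tested.

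In NGP inputs the members leaned lower after 6 days of STM2457. Of 55 tested, 0 rose and 4 fell, where 2.07% of all genes rose, 2.16% fell and 4.23% did either, and 13 members had an unadjusted p under 0.05. The median log2 change was -0.40 over the members and 0.01 over all genes, with 41 members below 0. Of all genes, 50.8% were above 0. H2AC12 held 9.14, 10.6 and 8.65 CPM with DMSO and 1.46, 1.82 and 3.44 with STM2457, a change of -2.13 (SE 0.51, adjusted p 0.0179). H2AC20 held 43.98, 48.9 and 41.4 CPM against 27.3, 29.3 and 17.5, a change of -0.93 (SE 0.23, adjusted p 0.0189). H2BC9 held 20.3, 22.2 and 23.1 CPM against 7.93, 14.2 and 11.003, a change of -1.07 (SE 0.29, adjusted p 0.0368). These groups did not overlap, nor did those of H2BC4, at 27.4, 26.0 and 19.99 CPM against 14.6, 14.9 and 9.76, a change of -0.98 (SE 0.28, adjusted p 0.0443). H2AC20 and H2BC9 thus passed the test in both lines at 6 days.

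The NGP calls rested on few libraries. In the fit of all 22 inputs H2AC12 passed, and H2AC20, H2BC9 and H2BC4 did not (adjusted p 0.0937, 0.0824 and 0.0744). Without DMSO replicate 1, 2 or 3 there were 1, 2 and 1 calls, without STM2457 replicate 1 there were 0, and without STM2457 replicate 3 there was 1. The most was 5, without STM2457 replicate 2. H2BC4 and H2BC9 kept their calls only when STM2457 replicate 2 was the one left out (otherwise adjusted p 0.0536 to 0.214). H2AC12 lost its call without DMSO replicate 1 (0.0526), DMSO replicate 3 (0.0640) or STM2457 replicate 1 (0.113), and H2AC20 without STM2457 replicate 1 (0.0832) or 3 (0.0778). H2AC6 and H2BC12, which rose in Kelly at 6 days, changed by 0.39 (adjusted p 0.435) and 0.04 (adjusted p 0.946) in NGP.

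**Figure D3:**
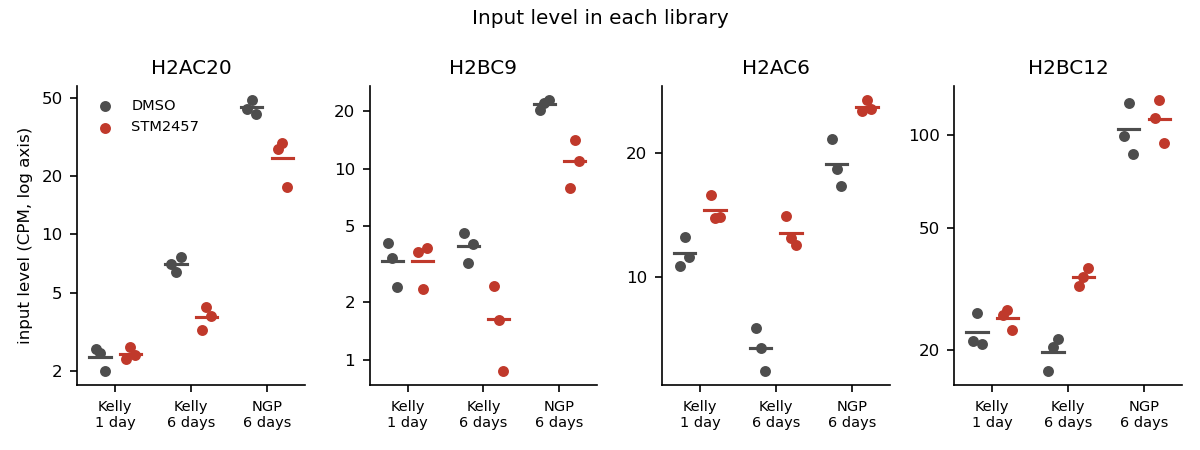
Input level (CPM of the library total, log axis) of H2AC20, H2BC9, H2AC6 and H2BC12 in each library of Kelly at 1 and 6 days and NGP at 6 days; points are libraries with DMSO or STM2457 and lines are group means. H2AC20 and H2BC9 lie lower with STM2457 at 6 days in both lines, and H2AC6 and H2BC12 lie higher at 6 days in Kelly.

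The xenograft inputs, with 2 libraries per group, gave no call in their own fit, and 10 (7 up, 3 down) in the fit of all 22 inputs, which shares the spread of the culture groups. The share of all genes called in that joint fit is not given here, so the 10 calls have no background beside them. Of 18 members tested 0 passed by edgeR or by DESeq2, as did 0% of 11329 genes by edgeR, and 4 members had an unadjusted p under 0.05. H1-2 held 32.6 and 33.1 CPM with DMSO and 55.5 and 83.5 with STM2457 (log2 change 1.21, adjusted p 0.511). H1-4 held 10.2 and 10.7 CPM against 47.0 and 20.5 (1.81, adjusted p 0.532), and H1-5 held 0.233 and 3.85 CPM against 19.1 and 21.9 (3.39, adjusted p 0.532). In all 3 linker members the STM2457 libraries lay above the DMSO libraries, and the summed H1 level was 2.72 times higher with no overlap. H3 summed to 0.284 times its DMSO level and H4 to 1.57 times, also with no overlap. H3 stood at only 4.08 and 3.73 CPM with STM2457, in libraries of 3.19 and 2.14 M fragments. Separation of 2 libraries from 2 carries no test, and the share of all genes so separated is not given here. Without STM2457 replicate 1, and likewise without STM2457 replicate 2, 3 members were called, in fits where the remaining STM2457 library is assumed to vary like the DMSO ones. Stroma, vessel and blood markers summed to 64.6 to 90.1 CPM with DMSO and 46.1 to 46.2 CPM with STM2457, and their part in these values was not tested. The rows are of human genes and the host was a mouse, so the sum does not measure host RNA.

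Among the linker histones only H1-5 in Kelly at 1 day passed a test of the input change. H1-2 changed by 0.14 in Kelly at 1 day, 0.15 at 6 days and 0.59 in NGP (adjusted p 0.0665). In NGP its libraries held 48.1, 56.6 and 50.9 CPM with DMSO and 67.5, 94.6 and 84.7 CPM with STM2457, with no overlap. H1-4 changed by -0.20, -0.39 and -0.69 and H1-3 by -0.44 in Kelly at 1 day (adjusted p 0.216). H1-1 had fragments in only 2 of the 44 libraries, both of NGP (0.287 and 0.0642 CPM), and was not tested.

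The response itself differed between the Kelly experiments for 3 of 49 members, where 3.67% of all genes differed upward, 4.73% downward and 8.41% either way. The change at 6 days minus the change at 1 day was 0.58 for H2BC12 (SE 0.16, adjusted p 0.0227), -1.02 for H2AC20 (SE 0.31, adjusted p 0.0413) and -4.52 for H1-3 (SE 1.10, adjusted p 0.0104). H1-3 held 3.12, 4.10 and 5.50 CPM with DMSO and 2.51, 3.48 and 3.57 with STM2457 at 1 day. At 6 days it held 0.496, 0.156 and 1.13 CPM with DMSO and 0, 0.0318 and 0 with STM2457, so its difference rests on levels near 0 and its fitted size is no bound. The call of H1-3 was lost without DMSO replicate 3 of 6 days (0.0741), and that of H2BC12 without DMSO replicate 2 (0.0715) or STM2457 replicate 3 of 1 day (0.0691). H2AC20 kept its call only without DMSO replicate 1 of 1 day or STM2457 replicate 2 of 6 days (otherwise 0.0552 to 0.112). Without STM2457 replicate 1 of 6 days 5 members were called. Day and experiment cannot be told apart. Between Kelly and NGP at 6 days 0 of 55 members differed in response by edgeR, where 1.36% of all genes did. By DESeq2 1 member differed, and 7 members had an unadjusted p under 0.05 by edgeR. The shares of all genes for these DESeq2 and unadjusted counts are not given here.

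Summed over the 66 members, histone mRNA took a smaller share of the pulldown than of the input with DMSO in all 4 experiments. With DMSO the summed RIP level was 0.689 times the input in Kelly at 1 day, 0.613 times at 6 days, 0.503 times in NGP and 0.733 times in the xenografts. The families did not all follow the sum. The group means of H1, H2A and H2B were below input in each experiment (0.135 to 0.756 times). The RIP and input libraries of H1 and H2A overlapped in the xenografts. Mean H3 stood at 1.22, 1.55 and 2.17 times input in Kelly at 1 day, at 6 days and in the xenografts. Its libraries overlapped in each of these, and in NGP it stood at 0.441 times with no overlap. At 6 days in Kelly the H3 pulldowns held 6.73, 6.26 and 15.8 CPM against inputs of 5.13, 8.22 and 5.18. In the xenografts they held 10.3 and 49.4 CPM against 13.7 and 13.8, so only 1 lay above input. Mean H4 stood at 0.782 and 1.495 times in Kelly at 1 and 6 days. It stood at 1.004 times in the xenografts and 0.646 times in NGP, both with overlap. In the fit of RIP over input the median log2 ratio was -0.81 over 49 members against -0.07 over all genes in Kelly at 1 day, -0.90 over 36 against -0.10 at 6 days, -1.43 over 56 against 0.08 in NGP and -0.55 over 29 against -0.16 in the xenografts. These ratios are relative to the bulk of mRNAs, whose overall ratio TMM scaling sets near 0. With scaling on the 13 mitochondrial mRNAs instead, the medians of all genes moved to 1.57, 4.77, 0.80 and 2.02 and those of the members to 0.84, 3.60, -0.77 and 0.68. The sign of the member median therefore turned in both Kelly experiments and the xenografts, while it stayed below that of all genes in each.

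**Figure D4:**
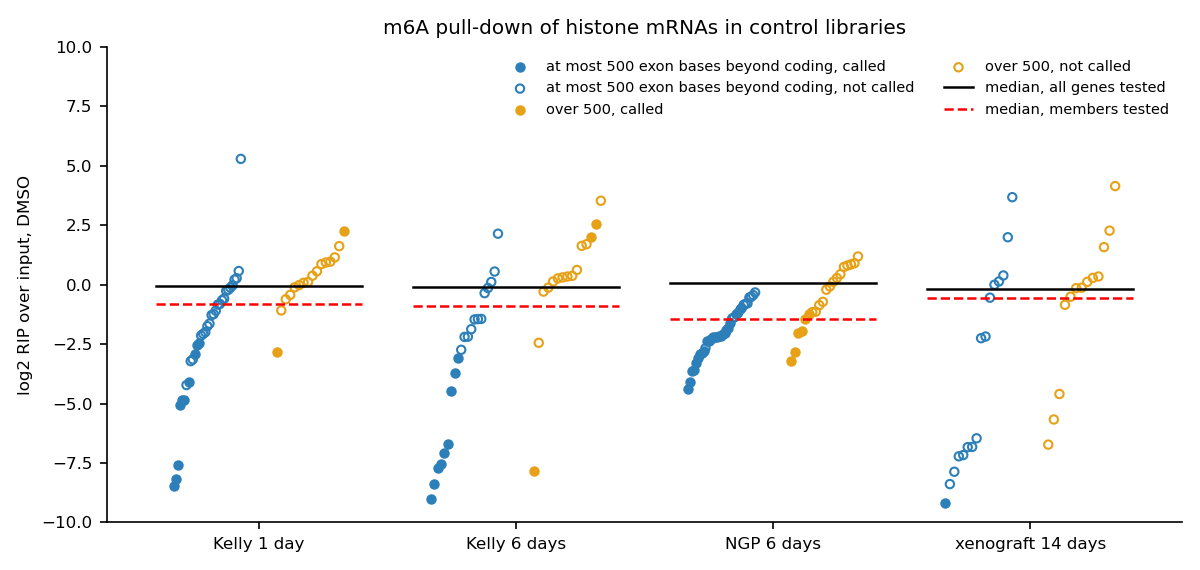
Log2 ratio of RIP over input in DMSO (edgeR, TMM scaling over all libraries of an experiment) for the histone members tested in each experiment; points are members, and lines mark the median of the members and of all genes. The member median is -1.43 in NGP against 0.08 over all genes; with mitochondrial scaling both medians are higher and the member medians of Kelly and the xenografts are above 0.

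NGP gave the most depleted members. Of 56 tested, 30 had a RIP level at least 2-fold below input at an adjusted p under 0.05 and 0 were at least 2-fold above, where 19% of all genes were depleted, 20.9% enriched and 40% either. With mitochondrial scaling 17 members were depleted and 5 enriched, where 975 of all 13088 genes were depleted and 4905 enriched. The calls took in 8 of 12 H2A, 10 of 16 H2B, 5 of 12 H3, 5 of 12 H4 and 2 of 4 H1 members. H2BC13 held 24.1, 36.2 and 18.3 CPM in the inputs and 2.76, 3.27 and 0.831 in the RIP libraries, a log2 ratio of -3.64 (adjusted p 6.75e-07). H4C13 (-4.40, adjusted p 0.00380) and H3C12 (-4.10, adjusted p 9.09e-05) were lower still, and all 3 were far from overlap. The highest ratios were those of H4C14 (1.19, adjusted p 0.132), H2BC8 (0.91, adjusted p 0.00262, under 2-fold) and H3C6 (0.85, adjusted p 0.124). H2BC12, the most abundant member, held 99.6, 128 and 87.0 CPM in the inputs and 55.8, 59.4 and 50.5 in the pulldown (-1.02), close to the 2-fold limit. Its call and that of H4C3 (-1.24, adjusted p 0.00170) were lost in 5 and 1 of the fits with a library left out, where the ratio fell short of 2-fold.

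In Kelly at 1 day 11 of 49 members were depleted and 1 enriched, against 29.1% and 26.3% of all genes (55.5% either). With mitochondrial scaling 4 members were depleted and 11 enriched, where 1116 of all 13669 genes were depleted and 6948 enriched. Of 5 linker histones tested, 3 were depleted, and 1 of the 5 had a ratio above 0. H1-2 held 15.4, 14.8 and 16.8 CPM in the inputs and 5.10, 2.57 and 0.464 in the RIP libraries (log2 ratio -2.45, adjusted p 0.00344), H1-4 had a ratio of -2.91 (adjusted p 0.00158) and H1-5 one of -5.05 (adjusted p 0.00219). H4C13 and H4C1 had no RIP fragment and were at least 15.5- and 12.7-fold below input, and H2AC16 had a ratio of -7.60 that rests on 1 RIP fragment. The enriched member, H2BC6, held 1.05, 1.41 and 0.904 CPM in the inputs and 4.34, 4.21 and 6.92 in the pulldown (2.25, adjusted p 0.0105). The other high ratios, of H1-6 (5.29, adjusted p 0.0924) and H3C6 (1.62, adjusted p 0.232), did not pass. H4C3 held 48.6, 54.0 and 54.8 CPM in the pulldown against 65.5, 58.1 and 66.2 in the inputs (-0.21, adjusted p 0.101). The count of 12 calls became 19 (4 enriched, 15 depleted) without STM2457 RIP replicate 2, although no STM2457 library is part of this contrast. The share of all genes called in that fit is not given here. H2BC14 (-2.52, adjusted p 0.0424) kept its call only when the library left out was an STM2457 RIP library (otherwise 0.0599 to 0.113).

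Kelly at 6 days gave 10 depleted and 2 enriched members of 36, against 27.3% and 25.8% of all genes (53.1% either). With mitochondrial scaling 0 members were depleted and 21 enriched, where 45 of all 13324 genes were depleted and 10965 enriched. H2BC13, H3C11 and H2BC18 had no fragment in the 3 DMSO pulldowns and were at least 14.6-, 9.24- and 6.36-fold below input. H2BC8 was the clearest enriched member, with 3.23, 3.52 and 4.86 CPM in the inputs and 17.1, 17.7 and 13.9 in the pulldown (log2 ratio 2.02, adjusted p 0.000603). H3C10 followed (2.56, adjusted p 0.0258), and its call was lost without DMSO input replicate 1 (0.0683) or 3 (0.0698) or DMSO RIP replicate 1 (0.0522). H4C8 (3.53, adjusted p 0.144) and H3C13 (2.15, adjusted p 0.324) had high ratios on few fragments and did not pass. In the xenografts 1 of 29 members was called, where 2.15% of all genes were depleted, 1.61% enriched and 3.75% either. H1-4 held 10.2 and 10.7 CPM in the inputs and 0 in both pulldowns, at least 38.3-fold lower (adjusted p 0.0433), and the call held only when the library left out was an STM2457 RIP library (otherwise 0.0886 to 0.148).

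Members with long annotated transcripts beyond the coding part had higher ratios than the short ones, in a split at 500 exon bases that was chosen after the values were seen and carries no test. In NGP the 20 members with more than 500 such bases had a median log2 ratio of -0.46 with 6 depleted, and the 36 tested members with at most 500 had -2.12 with 24 depleted. In Kelly at 1 day the medians were 0.25 over 16 members and -1.74 over 33, with 1 and 10 depleted. In Kelly at 6 days they were 0.34 over 15 and -2.20 over 21, with 1 and 9 depleted. H2BC6, H2BC8 and H3C10, the members enriched in Kelly, all came from the long group. Longer gene models also hold more sequence in which a fragment can be counted, and the part of length was not tested.

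The pulldown of Kelly at 1 day changed most with STM2457. The ratio of RIP over input rose for 3 of 49 members and fell for 0, where 9.53% of all genes rose, 7.62% fell and 17.2% did either, and 9 members had an unadjusted p under 0.05. The median change was 0.91 over the members and -0.03 over all genes, with 33 members above 0. Of all genes, 48.3% were above 0. H4C3 carried 39.9% of all member fragments in the STM2457 pulldown. Its RIP level was 48.6, 54.0 and 54.8 CPM with DMSO and 149, 184 and 150 with STM2457, while its inputs held 65.5, 58.1 and 66.2 CPM and 69.1, 67.4 and 71.1. The ratio of H4C3 rose by 1.58 on the log2 scale (SE 0.15, adjusted p 2.5e-05), the STM2457 pulldowns lay far above the DMSO ones, and the call held without any 1 library. H4C3 has no GGAC in its coding sequence.

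H2BC12 and H1-5 were the other calls in Kelly at 1 day. The RIP level of H2BC12 was 12.8, 13.8 and 15.3 CPM with DMSO and 45.3, 29.6 and 57.1 with STM2457, with inputs of 21.4, 26.3 and 20.9 against 26.0, 26.9 and 23.2 CPM. Its ratio rose by 1.60 (SE 0.31, adjusted p 0.00401), with no overlap in the pulldown. The RIP level of H1-5 was 0.454, 0.348 and 0 CPM with DMSO and 0.302, 9.56 and 2.72 with STM2457, which overlap, and its rise of 4.70 (SE 1.502, adjusted p 0.0495) kept its call only without STM2457 RIP replicate 1 or 3 (otherwise 0.0604 to 0.118). H1-2, with RIP levels of 5.10, 2.57 and 0.464 CPM against 9.67, 24.2 and 13.1, changed by 2.44 and did not pass (adjusted p 0.0673). Summed over families, the STM2457 pulldowns were 5.19 times the DMSO ones for H1, 2.59 times for H4 and 1.93 times for H2B with no overlap, while H2A (0.901) and H3 (1.25) overlapped.

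These changes depend on how the pulldown is scaled. With mitochondrial scaling the change was 0.14 for H4C3 (adjusted p 0.421), 0.18 for H2BC12 (adjusted p 0.679) and 3.19 for H1-5 (adjusted p 0.0874), while the median of all genes was -1.46 and that of the members -0.34. Under it 0 members rose and 4 fell, and 13 genes rose and 8323 fell. The count of member calls was 8 (6 up, 2 down) without STM2457 RIP replicate 1 and 10 (6 up, 4 down) without STM2457 RIP replicate 3. The shares of all genes called in those fits are not given here, so these counts have no background beside them.

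**Figure D5:**
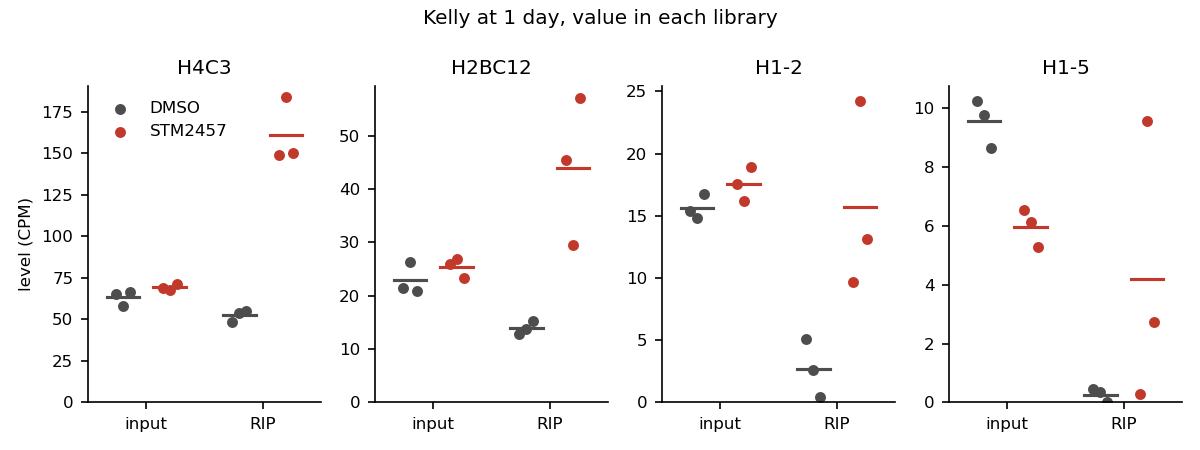
Level of H4C3, H2BC12, H1-2 and H1-5 in each library of Kelly at 1 day (CPM of the library total, vertical axis), for input and RIP libraries with DMSO or STM2457; points are libraries and lines are group means. The STM2457 pulldowns of H4C3 lie at 149 to 184 CPM and the DMSO ones at 48.6 to 54.8, while the inputs of H4C3 stay between 58.1 and 71.1.

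Other experiments gave little change in the pulldown ratio. In Kelly at 6 days 1 of 36 members rose and 0 fell, where 1.26% of all genes rose, 0.803% fell and 2.06% did either, and the median change was 0.63 against 0.20 over all genes. H2BC18 had 0 RIP fragments in the 3 DMSO libraries and 2.86, 0.538 and 3.25 CPM with STM2457, at least 8.00-fold higher (adjusted p 0.0428), with inputs of 2.73, 1.10 and 1.46 against 1.92, 2.48 and 1.39 CPM. Its call held only when an STM2457 RIP library was the one left out (otherwise 0.0563 to 0.138). H4C3, the member with the clearest rise at 1 day, changed by 3.03 at 6 days (adjusted p 0.390), on RIP levels of 1.66, 0.805 and 0 CPM against 3.37, 1.42 and 7.90. In NGP 0 of 56 members and 0% of 13088 genes passed by edgeR, 0 members passed by DESeq2, and 6 members had an unadjusted p under 0.05. The median change in NGP was 0.32 over the members. H4C3 there held 7.01, 6.29 and 7.10 CPM with DMSO and 5.52, 7.96 and 7.14 with STM2457. In the xenografts 0 of 29 members and 0% of 12626 genes passed by edgeR. DESeq2 called 1 member, and 3 had an unadjusted p under 0.05 by edgeR. The shares of all genes for these DESeq2 and unadjusted counts are not given here.

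The variant and polyadenylated histones, which include H2AX and CENPA, served as a comparison from a list chosen with earlier results known. In inputs of Kelly at 1 day 2 of 12 rose (H2AJ by 0.93 and H1-10 by 0.33) and 1 fell (MACROH2A1, -0.26). These stand beside 9.41% and 8.06% of all genes. At 6 days 0 rose and 6 fell, against 11.9% and 14.7% of all genes, among them H2AZ2 (-0.47), H2AZ1 (-0.36), CENPA (-0.34) and MACROH2A1 (-0.24). In NGP and the xenografts 0 of 11 passed. With DMSO their RIP over input was depleted for 8 of 12 and enriched for 2 of 12 in both Kelly experiments (medians -1.83 and -1.76), where 29.1% and 27.3% of all genes were depleted at 1 and 6 days and 26.3% and 25.8% enriched. It was depleted for 6 of 11 in NGP (median -1.002), where 19% of all genes were. The ratio rose with STM2457 for 6 and fell for 1 in Kelly at 1 day, with a median of 0.47, where 9.53% of all genes rose and 7.62% fell. H2AZ1 rose by 1.48 and H3-3B, which encodes the replacement histone H3.3, by 1.33, so low pulldown and a rise at 1 day were also seen in histone genes other than the members.

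Input changes in genes that act on histone mRNAs or in the cell cycle are set here beside those of all genes, of which 9.41% rose and 8.06% fell in Kelly at 1 day, 11.9% rose and 14.7% fell at 6 days, and 2.07% rose and 2.16% fell in NGP. Of 24 genes of histone mRNA processing, binding and decay, 2 rose and 3 fell in Kelly at 1 day, among them LSM10 (0.52), a U7 snRNP protein, and SYMPK (-0.20), a scaffold of the cleavage complex. At 6 days 2 rose, CTIF by 0.42 and XRN1, a 5′ to 3′ exonuclease, by 0.56. SLBP stood at 35.1 and 35.7 CPM in Kelly at 1 day, 83.1 and 86.4 at 6 days and 94.6 and 117.7 in NGP, with DMSO and STM2457. Of 8 genes of histone gene transcription, 0 changed at 1 day and CCNE1 fell by 0.29 at 6 days. Of 11 histone chaperones, 2 rose and 2 fell at 1 day, with SSRP1, a FACT subunit, at -0.33, and 1 rose and 2 fell at 6 days, with ASF1B at -0.43. Of 21 S phase genes, 2 rose and 7 fell in Kelly at 1 day, 2 rose and 1 fell at 6 days, and 2 rose in NGP. FEN1, a flap endonuclease of DNA replication, rose in all 3 of these, by 0.62, 0.59 and 0.61. Of 10 mitotic genes, 4 fell at 1 day and 5 at 6 days in Kelly and 0 changed in NGP, with AURKB, a mitotic kinase, at -0.33 and -0.48. In the xenografts no gene of these lists passed. The part of these genes in the histone values was not tested.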

How the data were processed

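m6A pulldown (RIP) and input RNA were sequenced from 44 libraries. The deposited tables hold counts of read pairs per gene, made by the authors with featureCounts 1.5.3 on exons grouped by gene symbol with GENCODE 33, with no strand, multi-mapping or multi-overlap option, per the file headers. How the aligner treated reads that match several copies is not stated, so counts of near-identical members are uncertain. FastQC 0.11.5, Trimmomatic 0.36, HISAT2 2.1.0, Subread 1.5.3, deepTools 2.0 and GRCh38/hg38 are named in the submitters' processing notes. Spike-in RNAs described in the labels were not used here.

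Each experiment was fitted on the whole table with edgeR 4.0.16 (R 4.3.3, limma 3.58.1): TMM factors, filterByExpr (minimum count 10, minimum total 15), quasi-likelihood tests and Benjamini-Hochberg adjustment over all genes tested, two-sided, threshold 0.05. Pulldown over input also needed at least 2-fold, and its change was the interaction of treatment and library type. Simulated data with known changes were used to test the fits. DESeq2 1.42.0, other scaling, no filter, a replicate block, all inputs together and leaving out each library were alternatives. Library totals ran from 2.14 to 36.5 M, and fold bounds against a group at 0 use 3 counts per library and cover counting error only. Median biological variation coefficients of members were 0.166 in Kelly at 1 day, 0.204 at 6 days, 0.369 in NGP and 0.687 in the xenografts, against 0.0773, 0.0930, 0.210 and 0.400 over all genes.

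Replicate numbers did not pair DMSO with STM2457 libraries of the same type. Correlations of deviations between such libraries with the same number ran from -0.370 to 0.425, and no experiment had all above 0.1. Pairing of input with RIP libraries was not checked, and the fits treat them as separate groups. Stem-loops, GGAC and copies were read from GRCh38 with GENCODE 44 models. Named members were the 5 highest per kb in DMSO inputs, every member called in an input or pulldown change, the 3 highest and 3 lowest pulldown ratios per experiment, and H1-1 to H1-5, with up to 4 called genes from each of the other lists. Members, lists and tests were chosen with earlier results of these data known. The split at 500 exon bases and the sums without H4C3 were added after the values were seen.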

Additional observations from a re-analysis of the deposited data

Results flagged for a closer look

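The response to STM2457 in Kelly inputs differed between 6 days and 1 day for 3 of 49 members, against 8.41% of all genes, each by a test of the difference itself (edgeR quasi-likelihood interaction, Benjamini-Hochberg adjusted over all genes, 3 libraries per group). The log2 change at 6 days minus that at 1 day was 0.58 for H2BC12 (adjusted p 0.0227), -1.02 for H2AC20 (adjusted p 0.0413) and -4.52 for H1-3 (adjusted p 0.0104). H1-3 had levels near 0 at 6 days. Each of the 3 calls was lost in at least 1 fit with a library left out. Groups held 2 or 3 libraries, too few to look for a single library far from the others.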

How the results depend on the processing

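Counts of called members mostly stayed, in both directions together, within 1.5 times of the reported ones. The exceptions follow, and their cause was not tested. With all 22 inputs in 1 fit, 0 members were called for the input change in Kelly at 1 day, against 3 at 6 days, 2 for NGP and 10 for xenografts. The shares of all genes called in that fit are not given here. With DESeq2, the change of RIP over input gave 7 calls in Kelly at 1 day, 2 at 6 days and 1 in the xenografts, the DMSO ratio gave 3 in the xenografts, and the response difference gave 5 between the Kelly experiments and 1 between Kelly and NGP. The shares of all genes called by DESeq2 are not given here. Without a filter on low counts the change of RIP over input in Kelly at 6 days gave 0. With mitochondrial scaling it gave 4 (1 up, 3 down), the change at 1 day turned from 3 up to 4 down, the DMSO ratio of Kelly at 1 day went from 1 up and 11 down to 11 up and 4 down and that of NGP from 30 down to 5 up and 17 down, the DMSO ratio of Kelly at 6 days gave 21, all higher, and that of the xenografts 0, and the DMSO ratio turned sign for H2AC20 (0.41) and H2AC8 (1.08) in Kelly at 6 days. All genes shifted under mitochondrial scaling as well, with 9 up and 3929 down for the change in Kelly at 6 days. Their counts for the DMSO ratios of the culture experiments are given above. The log2 ratio of summed inputs with TMM scaling was -0.055 in Kelly at 1 day, 0.13 at 6 days and 0.53 in the xenografts, and that of summed pulldowns in Kelly at 1 day was 0.76 without H4C3.

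Replicate numbers did not pair DMSO with STM2457 libraries of the same type, and pairing of input with RIP was not checked. With the replicate block the change in Kelly at 6 days and the DMSO ratio in the xenografts each gave 0 calls.

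With each library left out in turn, calls of the input change ran from 1 to 3 in Kelly at 1 day, 5 to 7 at 6 days, 0 to 5 in NGP and 0 to 3 in the xenografts. The DMSO ratio gave 9 to 19, 10 to 17, 24 to 31 and 0 to 1, and its change 2 to 10, 0 to 1, 0 to 0 and 0 to 0, in the same order. The response difference between the Kelly experiments gave 1 to 5, and Kelly against NGP controls 44 to 53. The shares of all genes called in these fits with a library left out are not given here. For single genes, 2376 values kept direction and side of the threshold, 325 no longer passed and 2 turned sign. Low levels limited the members: 18 could be tested in the xenograft inputs and 30 in the Kelly inputs at 6 days.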
